A study of Mus musculus with 12 samples.

Results

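The endothelial junction and barrier genes described here are Cldn5, Cdh5, Pecam1, Esam, Icam2, Jam2, Tjp1, Ocln, S1pr1 and F11r. They were taken by gene symbol from the annotation of the array, and make up 10 of the 19057 genes that it names. 9 of the 10, and 15653 of all genes, had a probe above the low-signal limit used for testing. The levels were measured in whole lungs of 6 Foxf1+/- mice and 6 wildtype littermates at postnatal day 0.5, with 1 lung on each Illumina MouseWG-6 v2.0 array. The Foxf1+/- mice carried 1 Foxf1 allele that lacked the exon encoding the forkhead DNA-binding domain and part of the promoter. The deletion was made by crossing floxed females to EIIa-Cre males, a Cre that acts in the early embryo. Germ cells then passed the null allele to offspring, so that the loss was not limited to 1 cell type. Both groups had a mixed 129/C57BL6/J background. The study asked which genes are deregulated when 1 copy of Foxf1 is lost.

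The inner wall of blood and lymph vessels is sealed by junctions between neighbouring endothelial cells. Adherens junctions hold the cells together through VE-cadherin, tight junctions limit the leak of fluid and solutes through claudins, occludin and junctional adhesion molecules tied to ZO proteins, and further adhesion molecules at the cell border guide leukocytes across. Foxf1 is a forkhead transcription factor of the lung mesenchyme and endothelium.

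Because Cldn5 is the one member that was called, its promoter is shown here, taken from RefSeq sequence of the GRCm38.p6 build. 4 of the 10 members (Cldn5, F11r, Ocln and Tjp1) had a promoter in the table used. The stretch lies on the plus strand at chr16:18776597-18776896, from 250 bases before to 50 bases after the start of the gene, and its capitals mark the CCAAT box, here in its reverse form ATTGG.
Cldn5: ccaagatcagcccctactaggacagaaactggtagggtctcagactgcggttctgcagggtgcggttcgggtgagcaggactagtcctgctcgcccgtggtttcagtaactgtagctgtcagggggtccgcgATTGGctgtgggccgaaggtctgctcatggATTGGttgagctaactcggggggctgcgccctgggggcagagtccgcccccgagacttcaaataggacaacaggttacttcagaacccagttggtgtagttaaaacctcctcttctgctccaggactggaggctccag
CCAAT was searched on both strands, with 2 matches at Cldn5 that start at positions -118 and -88 from the start site, and 37.4% of the 32851 promoters of the same length held at least 1. The GC box GGGCGG matched 1 time, in its reverse form at position -45, and 35.7% of promoters held it. The forkhead core TGTTTA, the ETS core CCGGAA and TATAAA had 0 matches in this window, against 13.4%, 14.9% and 13.6% of promoters that held them. The forkhead core had 0 matches in the promoters of F11r, Ocln and Tjp1 too.

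Signals were put on a log2 scale, on which a step of 1 is a doubling, and the lowest signals of the arrays lie near a log2 of 6. The arrays fell into 6 brighter ones, called experiment A (2 wildtype and 4 Foxf1+/-, raw medians 72.8 to 89.3), and 6 dimmer ones, called experiment B (4 wildtype and 2 Foxf1+/-, raw medians 57.3 to 62.6). The study ran 2 array experiments, which the labels do not name, and the split was inferred from the signal. Differences between genotypes are given as log2 fold changes (Foxf1+/- over wildtype, ± SE), fitted with the experiment as a block, so that they can differ from the gap between the plain group means. Adjusted p-values are those of limma over all 33947 probes tested, and a gene is said to have risen or fallen where this p was under 0.05. Foxf1 itself fell by 1.00 ± 0.13 (adjusted p = 0.00224), with means of 11.56 ± 0.38 in wildtype and 10.83 ± 0.55 in Foxf1+/- lungs (SD, n = 6 each) that were apart inside each experiment. Where its probe lies relative to the deleted exon is not known here.

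Of the 9 members past the limit, 1 fell and 0 rose, beside 3.61% of all genes called (1.79% lower and 1.82% higher). By probe, 16 of 18 member probes were tested and 1 was called, beside 2.97% of all probes. The called gene was Cldn5. The median fold change of the 9 members was -0.19, and that of all genes was -0.01. In 3 members the genotypes did not overlap inside either experiment and differed the same way in both, lower for Cldn5 and F11r and higher for Pecam1, beside 6.07% of all genes. Inside experiment A alone, 2 wildtype lungs can easily stand apart from 4 Foxf1+/- lungs by chance. The share of all genes apart in that way is not given here. In RNA of a whole lung, fewer cells of a type and less RNA per cell cannot be told apart.

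**Figure D1:**
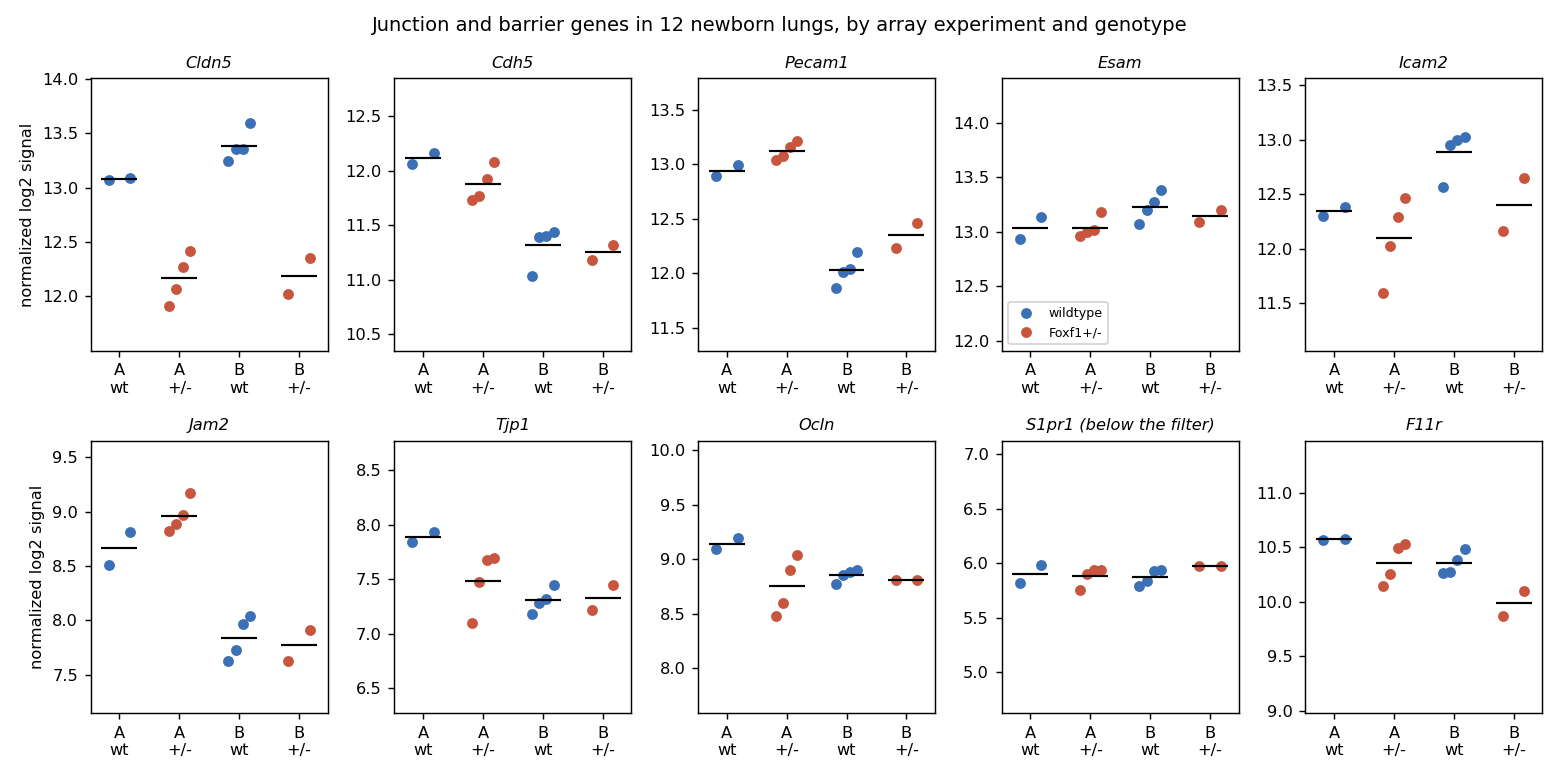
Normalized log2 signal of the brightest probe of each gene in each of the 12 lungs, by array experiment (A or B) and genotype (wt, wildtype; +/-, Foxf1+/-). Points are lungs and lines are means, and every panel spans the same log2 range. Cldn5 is from 13.07 to 13.59 in wildtype and from 11.91 to 12.41 in Foxf1+/- lungs, with no overlap.

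The tight junction genes come first. Cldn5 encodes claudin-5, the main claudin of endothelial tight junctions and a seal against small molecules in the vessels of the brain. Its log2 signal in experiment A was 13.09 and 13.07 in the wildtype lungs and 12.41, 12.07, 12.27 and 11.91 in the Foxf1+/- lungs. In experiment B it was 13.35, 13.35, 13.24 and 13.59 in wildtype and 12.35 and 12.02 in Foxf1+/- lungs. Each of the 6 Foxf1+/- lungs was thus below each of the 6 wildtype lungs, with means of 12.17 ± 0.20 and 13.28 ± 0.20 (SD, n = 6 each). Cldn5 fell by 1.05 ± 0.11 on the log2 scale (95% confidence interval -1.28 to -0.82), or 2.07-fold, with an adjusted p of 0.000379 in limma. The exact permutation test of genotypes inside the experiments, two-sided, gave p = 0.00444, the smallest that its 225 arrangements can give. Experiment A gave -0.91 and experiment B -1.20. Limma put the difference between these at -0.29 ± 0.20 (adjusted p = 0.999). Over all 33947 probes limma called 0 such differences (0%), while 3.36% had an unadjusted p under 0.05. Leaving out each lung in turn gave fold changes from -1.10 to -0.95, and the call held each time, with adjusted p-values up to 0.0027. It was lost within experiment A alone, at an adjusted p of 0.142.

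Ocln encodes occludin, a membrane protein of tight junctions that epithelium and some endothelium make. Its log2 signal ran from 8.77 over a median of 8.89 to 9.19 in wildtype and from 8.48 over 8.81 to 9.04 in Foxf1+/- lungs. The groups overlapped as a whole but not inside experiment A, where wildtype was at 9.10 and 9.19 and Foxf1+/- between 8.48 and 9.04. Ocln was at -0.22 ± 0.10 (adjusted p = 0.319). Experiment A gave -0.39 and experiment B -0.04, a difference with an interaction p in limma of 0.0900 before and 0.999 after adjustment.

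Tjp1 encodes ZO-1, the scaffold that ties claudins and occludin to actin. Its signal went from 7.18 over a median of 7.38 to 7.94 in wildtype and from 7.10 over 7.46 to 7.69 in Foxf1+/- lungs, which overlapped widely. Tjp1 was at -0.19 ± 0.12 (adjusted p = 0.478), from -0.41 in A and 0.02 in B, and without 1 lung it ran from -0.29 (Foxf1+/- replicate 5) to -0.12 (Foxf1+/- replicate 2 or wildtype replicate 2). In experiment A all 4 Foxf1+/- lungs were below both wildtype lungs, while in experiment B the groups overlapped. The interaction p in limma was 0.0703, and 0.999 after adjustment.

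F11r, Jam2 and Esam belong to 1 family of immunoglobulin-type adhesion molecules. F11r encodes JAM-A, which both epithelium and endothelium carry, as platelets do. Its signal ran from 10.26 over 10.44 to 10.58 in wildtype and from 9.87 over 10.20 to 10.54 in Foxf1+/- lungs. Inside each experiment, every Foxf1+/- lung was below every wildtype lung: in A, 10.14 to 10.54 against 10.57 and 10.58, and in B, 9.87 and 10.10 against 10.26 to 10.49. For F11r this gave -0.29 ± 0.08 (95% confidence interval -0.47 to -0.11), which did not pass after adjustment over all probes (adjusted p = 0.0886). The exact permutation test inside the experiments, two-sided, gave p = 0.00889. Of the 12 fits that left out a lung, F11r passed in 1, without Foxf1+/- replicate 1 (adjusted p = 0.0490, otherwise up to 0.287). Of 13 other settings it passed in 1, limma on the authors' processed values (-0.27, adjusted p = 0.0317, otherwise up to 0.710). The methods' t-test on those same processed values gave an adjusted p of 0.0743.

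Jam2 encodes JAM-B, found at the borders of vascular and lymphatic endothelial cells. The brightest of its 6 probes gave 7.63, 8.004 and 8.81 as the lowest, median and highest signal in wildtype and 7.63, 8.85 and 9.17 in Foxf1+/- lungs. Experiment A was brighter for this probe in both genotypes and held 4 of the 6 Foxf1+/- lungs. Inside A all 4 Foxf1+/- lungs (8.82 to 9.17) were above both wildtype lungs (8.51 and 8.81), as for the next 2 probes by brightness, while in B the groups overlapped. With the experiment in the fit the change was 0.11 ± 0.11 (adjusted p = 0.687), from 0.30 in A and -0.07 in B. It was 0.01 without wildtype replicate 2 and 0.21 without Foxf1+/- replicate 6. The next probes by brightness gave 0.23 ± 0.10 and 0.23 ± 0.09 (adjusted p = 0.244 and 0.236). The other 3 were near the floor, with mean signals of 6.57, 6.01 and 5.97, and 1 of them was below the limit for testing.

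Esam encodes a cell-selective adhesion molecule of endothelial tight junctions and platelets. Its signal was between 12.93 and 13.38 (median 13.17) in wildtype and between 12.96 and 13.20 (median 13.05) in Foxf1+/- lungs. All 6 Foxf1+/- lungs were inside the wildtype range. Esam thus gave -0.04 ± 0.07 (adjusted p = 0.844), and its 95% confidence interval went from -0.19 to 0.11. Without 1 lung it ran from -0.0894 (wildtype replicate 1) to -0.00755 (Foxf1+/- replicate 6).

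Cdh5 encodes VE-cadherin, which carries the adhesion of endothelial adherens junctions. Its brighter probe had 11.03, 11.42 and 12.16 as the lowest, median and highest signal in wildtype and 11.18, 11.75 and 12.08 in Foxf1+/- lungs. The groups overlapped in both experiments, and the arrays of experiment A were again the brighter ones. The fold change was -0.15 ± 0.09 (95% confidence interval -0.35 to 0.04, adjusted p = 0.454), and the other probe gave -0.03 ± 0.10 (adjusted p = 0.925). Cldn5 was also set against Cdh5 lung by lung, by taking the Cdh5 signal of each lung from that of every probe. In this comparison Cldn5 was lower by -0.90 ± 0.13 (adjusted p = 0.000427), so that the 2 genes changed unequally.

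Pecam1 encodes CD31, an adhesion molecule of endothelial borders that platelets and many leukocytes also carry. In experiment A its brightest probe had 12.89 and 13.00 in wildtype and 13.04 to 13.21 in Foxf1+/- lungs. In experiment B it had 11.87 to 12.19 in wildtype and 12.23 and 12.47 in Foxf1+/- lungs. The Foxf1+/- lungs were thus the higher ones in both experiments, by 0.18 and 0.32, the opposite side from Cldn5 and F11r. The fold change was 0.25 ± 0.07 (95% confidence interval 0.10 to 0.40), with an adjusted p of 0.0847. The exact permutation p inside the experiments, two-sided, was 0.00444, again the smallest possible. As for Cldn5 and F11r, the lack of overlap already makes the observed arrangement the extreme one on its side, so this p is not separate evidence. For the other tested members this permutation p ran from 0.0711 (Icam2) to 0.582 (Esam). The dimmest of its 3 probes gave 0.24 ± 0.07 (adjusted p = 0.117) and the remaining one 0.06 ± 0.08 (adjusted p = 0.768). With limma on the authors' processed values, the brightest and the dimmest probe passed, at 0.27 (adjusted p = 0.0126) and 0.22 (adjusted p = 0.0204). Both also passed by the methods' t-test on those values (adjusted p = 0.0355 and 0.0498). The brightest probe passed in 2 of 13 other settings and in 0 of the 12 fits that left out a lung. Relative to Pecam1 in the same lung, Cldn5 was lower by -1.30 ± 0.12 (adjusted p = 1.52e-05), a value in which Pecam1's own difference takes part and in which 15020 of all probes passed.

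Icam2 encodes an adhesion molecule of resting endothelium, platelets and some leukocytes that binds leukocyte integrins. Its signal went from 12.30 over 12.76 to 13.03 in wildtype and from 11.60 over 12.23 to 12.65 in Foxf1+/- lungs. The groups overlapped in both experiments. Icam2 was at -0.37 ± 0.15 (95% confidence interval -0.70 to -0.03, adjusted p = 0.250), from -0.25 in A and -0.48 in B.

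S1pr1 encodes the sphingosine-1-phosphate receptor of endothelium that strengthens its junctions. Its only probe was at the floor in all lungs, between 5.79 and 5.99 in wildtype and between 5.76 and 5.97 in Foxf1+/- lungs. It was below the limit for testing, so the arrays give no measured difference for this gene.

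**Figure D2:**
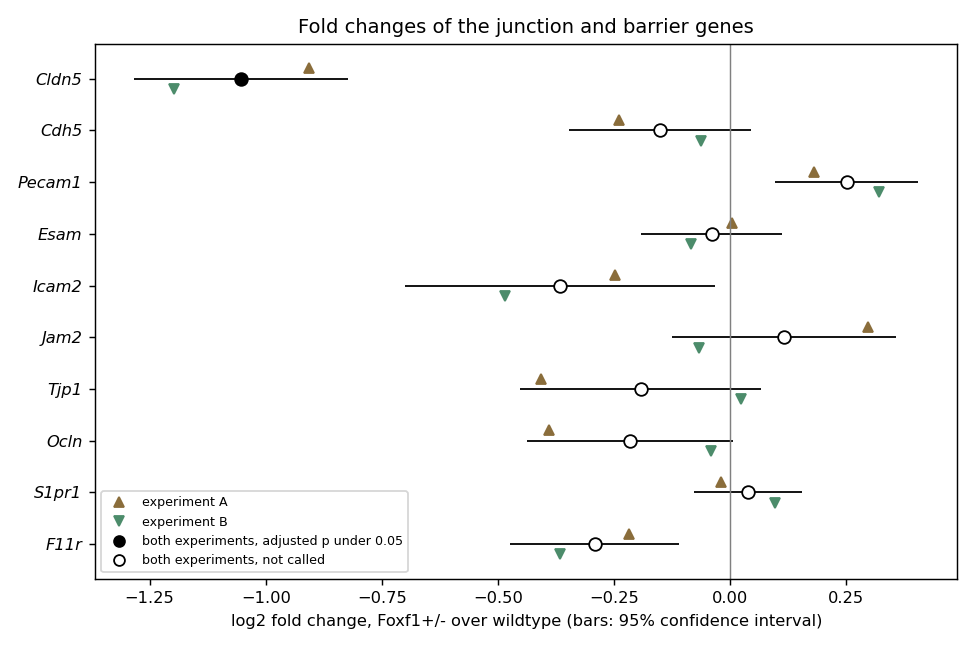
Log2 fold change of each gene, Foxf1+/- over wildtype, from the brightest probe, with its 95% confidence interval (bars) and the values inside experiment A and B (triangles). Filled circles passed at an adjusted p under 0.05, which holds for Cldn5 at -1.05 alone, and Pecam1 at 0.25 is the highest.

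How the members varied between lungs of the same genotype was described with the means of the 4 combinations of genotype and experiment taken out, over 12 arrays (8 residual degrees of freedom). 45 pairs of members and Foxf1 were looked at, and the points of each pair share their array and its normalization, so no p is given. What share of all genes reaches such values is not given here, so a high r does not set a pair apart from other genes. Cldn5 went with Icam2 (Pearson's r = 0.90, Spearman's rho = 0.87). Without the 2 lungs farthest from the median in Cldn5, r was 0.82. Cldn5 went with Foxf1 (r = 0.87, rho = 0.85, and 0.82 without the 2 farthest lungs), as Icam2 did (r = 0.86, rho = 0.83, and 0.74). F11r had r = 0.73 with Cldn5 (rho = 0.66, and 0.50 without the 2 farthest lungs) and r = 0.74 with Foxf1 (rho = 0.75). With Cldn5, Cdh5 had r = 0.48, Pecam1 0.28 and Esam 0.11, and without the 2 farthest lungs these were 0.50, 0.48 and 0.55, close to that of F11r. Pecam1 was closest to Jam2 (r = 0.78, rho = 0.78).

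**Figure D3:**
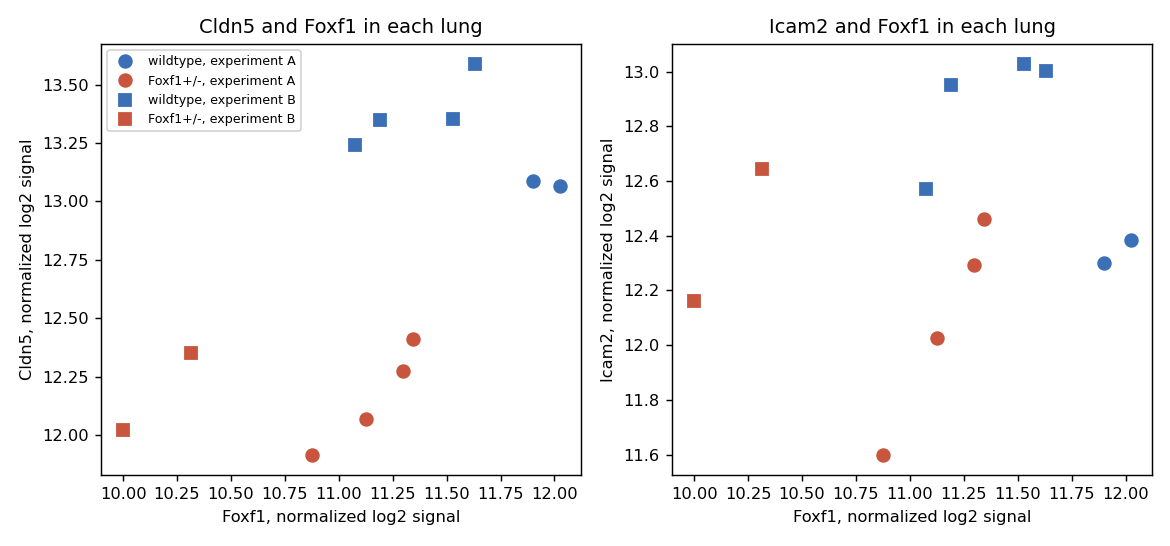
Cldn5 (left) and Icam2 (right) against Foxf1, both as normalized log2 signal, with 1 point per lung, coloured by genotype and shaped by array experiment. Inside each genotype and experiment with 4 lungs, lungs with more Foxf1 signal tend to have more Cldn5, and r was 0.87 with the means taken out.

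With only the experiment means taken out, so that the genotype difference itself stays in the likeness, the genes whose pattern over the 12 arrays was most like that of Cldn5 were Ackr2 (r = 0.99, rho = 0.97), Scn3b (r = 0.98, rho = 0.97) and Foxf1 (r = 0.98, rho = 0.96). Ackr2 encodes an atypical chemokine receptor and Scn3b a subunit of sodium channels. Ackr2 fell by 1.28 ± 0.10 (adjusted p = 3.08e-05), and Scn3b fell by 1.21 ± 0.15 (adjusted p = 0.00185).

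Around the members, the other claudins were of 16 measured genes 1 higher and 0 lower, with a median of -0.01. Cldn4, a claudin of lung epithelium, rose by 0.65 ± 0.14 (adjusted p = 0.0350), with means of 11.14 in wildtype and 11.97 in Foxf1+/- lungs. The alveolar claudin gene Cldn18 (-0.19 ± 0.18, adjusted p = 0.685) and Cldn3 (0.13 ± 0.15, adjusted p = 0.736) did not pass. The lowest of the 16 was Cldn23 (-0.32 ± 0.17, adjusted p = 0.400) and the highest Cldn2 (0.66 ± 0.24, adjusted p = 0.183), both named after their values were seen. The call of Cldn4 was lost without any 1 of wildtype replicates 1, 3, 4 and 6 or Foxf1+/- replicates 3, 5 and 6, with adjusted p-values up to 0.138.

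Of 17 measured tight junction proteins and scaffolds, 2 rose and 2 fell, with a median of 0.01. The coxsackievirus and adenovirus receptor gene Cxadr, a relative of the JAM genes, fell by 0.36 ± 0.08 (adjusted p = 0.0309), and the polarity gene Pard6a fell by 0.23 ± 0.05 (adjusted p = 0.0416). Pard6b, its paralog, rose by 0.25 ± 0.06 (adjusted p = 0.0350), as did Ybx3, whose product binds ZO-1, by 0.37 ± 0.09 (adjusted p = 0.0449). Cgnl1, which encodes the junction adaptor paracingulin, was at -0.24 ± 0.12 (adjusted p = 0.324). Each of the 4 calls was lost without some lungs: Cxadr when 1 of wildtype 1, 2 and 6 and Foxf1+/- 3, 5 and 6 was left out (adjusted p up to 0.0918), and Pard6b when 1 of wildtype 1, 2 and 4 and Foxf1+/- 2, 3, 4, 5 and 6 was left out (up to 0.121). Pard6a and Ybx3 kept the call without 2 of the 12 lungs each, Foxf1+/- replicates 1 or 2 for Pard6a (otherwise up to 0.160) and wildtype replicate 4 or Foxf1+/- replicate 4 for Ybx3 (otherwise up to 0.147).

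Of 18 adherens junction and adaptor genes, 1 rose and 2 fell, with a median of -0.01. Ptprb, which encodes the endothelial phosphatase VE-PTP that binds VE-cadherin, fell by 0.70 ± 0.12 (adjusted p = 0.0105), and Actn4, an actin crosslinker, rose by 0.44 ± 0.08 (adjusted p = 0.0107). Both calls held whichever lung was left out, and under 9 (Ptprb) and 10 (Actn4) of 13 other settings. Ctnnd2, a delta-catenin gene, fell by 0.46 ± 0.10 (adjusted p = 0.0330), a call lost when 1 of wildtype 1, 3, 4 and 6 and Foxf1+/- 2, 3, 5 and 6 was left out (up to 0.123). The catenins that bind VE-cadherin did not pass, with Ctnnb1 at -0.06 ± 0.10 (adjusted p = 0.834) and Ctnnd1 at -0.15 ± 0.12 (adjusted p = 0.604).

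Among 15 genes of leukocyte passage and adhesion, 2 rose and 0 fell. Pvr, a nectin-like molecule, rose by 0.33 ± 0.08 (adjusted p = 0.0408), and Sele, the gene of E-selectin, by 0.32 ± 0.07 (adjusted p = 0.0290) at a mean signal of 6.13 near the floor. With a normexp offset of 16 the value of Sele was 0.62, and with the authors' processed values 0.18. The call of Pvr held only without wildtype replicates 2 or 3 (otherwise up to 0.161), and that of Sele was lost when 1 of wildtype 1, 2, 3 and 4 and Foxf1+/- 3, 5 and 6 was left out (up to 0.106). Icam1 (0.11 ± 0.12, adjusted p = 0.733) and Vcam1 (-0.33 ± 0.17, adjusted p = 0.368), ligands of leukocyte integrins as Icam2 is, did not pass.

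Of 20 genes of sphingosine-1-phosphate, 0 rose and 1 fell. Acer2, a ceramidase that frees sphingosine, fell by 0.92 ± 0.19 (adjusted p = 0.0250), with means of 12.06 and 11.12, and lost the call when wildtype 1, wildtype 2 or Foxf1+/- 5 was left out (up to 0.0944). The kinase gene Sphk1 (0.55 ± 0.20, adjusted p = 0.187) and the receptor gene S1pr2 (-0.11 ± 0.10, adjusted p = 0.680) did not pass. Of 31 barrier regulators, 2 rose and 0 fell. Adm, the gene of the peptide adrenomedullin, rose by 0.53 ± 0.09 (adjusted p = 0.00789). Its signal was low, with means of 6.65 in wildtype and 7.18 in Foxf1+/- lungs. The call of Adm held without each lung and under 10 of 13 other settings. Rapgef1, an exchange factor for Rap1, rose by 0.38 ± 0.08 (adjusted p = 0.0275). Its call was lost when 1 of wildtype 1 and 2 and Foxf1+/- 3, 5 and 6 was left out (up to 0.0984). The receptor genes Tek (-0.37 ± 0.14, adjusted p = 0.190) and Robo4 (0.32 ± 0.10, adjusted p = 0.111) did not pass. Of 6 gap junction genes, limma called 0, among them Gja4 (0.04 ± 0.18, adjusted p = 0.953) and Gja5 (-0.39 ± 0.22, adjusted p = 0.423).

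**Figure D4:**
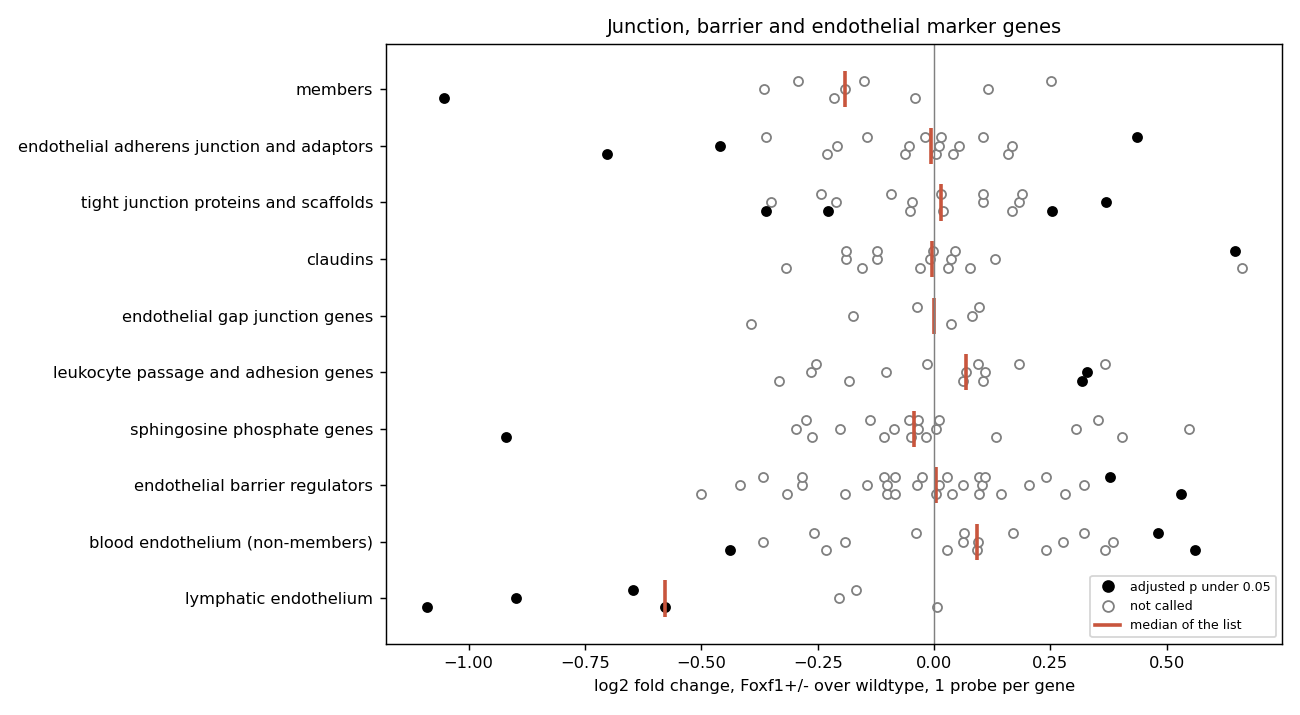
Log2 fold change, Foxf1+/- over wildtype, of each measured gene (1 probe per gene) in the members and in lists of related and marker genes, with genes at an adjusted p under 0.05 filled and the median of each list as a line. The members have a median of -0.19, blood endothelial markers one of 0.09 and lymphatic markers one of -0.58.

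Beside the members, markers of vessel, blood and other lung cell types moved as follows. Of 19 other blood endothelial genes, 2 rose (Emcn and Fli1) and 1 fell (Vwf), and their mean log2 level was between 10.11 and 10.40 in wildtype and between 10.28 and 10.48 in Foxf1+/- lungs, with Kdr, Erg and Clec14a near the floor. Of 7 lymphatic endothelial genes, 4 fell and 0 rose, and their mean level did not overlap, between 9.86 and 10.09 in wildtype and between 9.40 and 9.54 in Foxf1+/- lungs. Lyve1, a hyaluronan receptor of lymphatic endothelium, fell by 1.09 ± 0.11 (adjusted p = 0.000379), beside which the lymphatic transcription factor gene Prox1 was at 0.01 ± 0.15 (adjusted p = 0.991). Ccl21a, Mmrn1 and Reln were the others that fell. Platelet genes, 0 of 9 called, had mean levels between 7.92 and 8.10 in wildtype and between 7.60 and 7.88 in Foxf1+/- lungs, and leukocyte genes, 0 of 9 called, had 8.81 to 9.67 and 8.50 to 8.80, neither with an overlap. Epithelial genes, of which 1 of 13 rose (Krt19), had 11.37 to 11.53 and 11.37 to 11.59. Mesenchymal genes, of which 1 of 9 rose (Pdgfra), had 10.66 to 11.30 and 11.01 to 11.41. Erythroid genes, 0 of 3 called, had 11.60 to 11.92 and 10.73 to 11.76. These ranges pool both experiments, which hold unequal numbers of each genotype. With the experiment in the fit, Foxf1+/- lungs differed from wildtype by -0.26 for platelet and leukocyte and -0.51 for lymphatic and erythroid genes. The difference was 0.09 for blood endothelial and mesenchymal genes and 0.04 for epithelial genes. Epcam and Epb42, below the limit for testing, entered the levels, which thus average 14 epithelial and 4 erythroid genes. The 4 lymphatic calls held whichever lung was left out and under 10 (Reln) or 11 of 13 other settings. Fli1 and Krt19 lost theirs when wildtype 1 or Foxf1+/- 5 was left out (adjusted p up to 0.0619 and 0.0604), Emcn when 1 of wildtype 1, 2, 3 and 6 and Foxf1+/- 5 was (up to 0.124). Vwf did so for wildtype 1, 3, 4 and 6 and Foxf1+/- 3, 4, 5 and 6 (up to 0.157), and Pdgfra for wildtype 1, 3, 5 and 6 and Foxf1+/- 2, 3, 4, 5 and 6 (up to 0.148). The part of the marker levels in the fall of Cldn5, or in the F11r and Icam2 differences that were not called, was not tested.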

How the data were processed

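RNA of 12 whole lungs was measured on Illumina MouseWG-6 v2.0 arrays. The authors deposited the raw intensity of each probe, on a linear scale, and log2 values that they had processed in lumi (variance stabilization and robust spline normalization) and ComBat, for which no versions were found. From the raw intensities, background was corrected by normexp with an offset of 50 in limma 3.58.1 under R 4.3.3, and log2 signals were quantile normalized. Detection p-values and control probes, which Illumina's own correction needs, were not at hand. Of 45263 intact probes, with 18 damaged ones left out, those with a mean above the 25th percentile were tested (33947). The offset damps fold changes of dim genes, and precision is limited by the number of arrays.

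Limma fitted genotype and array experiment per probe, two-sided, with Benjamini-Hochberg adjustment over all probes tested. The experiments were inferred by 2-means clustering of the arrays on their 5th, 50th and 95th signal percentiles (mean silhouette 0.75). The brightest probe stood for a gene. P-values set each difference against the spread between these lungs. The litters of the lungs are unknown here and were not in the fit. The pipeline was tested on simulated data.

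The members, lists and alternatives were chosen with earlier results of these data known. The genes named were the members, Foxf1, up to 4 called genes of each list by smallest adjusted p with up to 2 uncalled genes close in function to a member, markers beside a member result, and the 3 genes most like a called member over the arrays. Symbols came from the annotation of the array: 34874 intact probes carried a single symbol, 18 carried several, and 10371 were unnamed. A RefSeq gene was found for 34796. Alternatives covered background correction, scaling, filter, blocks, array weights, the Xist level, the authors' processed log2 values and the methods' t-test. They also covered levels relative to Cdh5 or Pecam1, each experiment alone and leaving out each lung.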

Additional observations from a re-analysis of the deposited data

Results flagged for a closer look

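In 34 groups of 6 lungs, 1 for each genotype and member probe (the Jam2 probe below the limit for testing left out, and that of S1pr1 kept as its only one), a lung that stood far from the others of its group was looked for with Dixon's test, which flags about 1 group in 20 by chance, and 2 were found. For S1pr1, whose probe was at the floor, Foxf1+/- replicate 1 had a log2 signal of 5.76, against 5.90 in the nearest lung and a group mean of 5.91. For the middle one of the 3 Pecam1 probes by brightness, Foxf1+/- replicate 3 had 9.97, against 10.29 in the nearest lung and a group mean of 10.28.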

How the results depend on the processing

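Cldn5 fell under 12 of 13 settings with other processing or fewer experiments and without each of the 12 lungs. Over all 13 settings and the 12 fits without a lung, the fold change stayed between -1.20 and -0.91. The value of -0.91 is from experiment A alone, where Cldn5 was not called. It was -0.90 relative to Cdh5 and -1.30 relative to Pecam1. 1007 probes were called, 2582 with the authors' processed values, 501 without the experiment block, 1579 by the methods' t-test, 10 in experiment A alone, 56 in experiment B alone and 401 to 1112 when 1 lung was left out. Of member probes 1 was called, 4 with the processed values, 3 by the t-test, 0 in experiment A alone and 1 to 2 when 1 lung was left out. Relative to Pecam1 in the same lung, 15020 probes and 9 member probes passed, and relative to Cdh5 1055 and 1. Foxf1 did not pass without the experiment block (-0.73) or in experiment A (-0.80) or B (-1.20) alone. The labels do not say whether replicate numbers pair the lungs. With group means taken out, same-numbered lungs correlated between -0.52 and 0.48. These values were above 0 for the 4 numbers whose lungs share an experiment and below 0 for the other 2. With the experiment means also taken out, they were between -0.35 and 0.17. With so few lungs per genotype and experiment, this cannot decide whether the numbers pair lungs. A replicate block beside the experiment left 149 probes called, with Cldn5 at -1.03 (adjusted p = 0.0461) and Foxf1 at -0.96 (adjusted p = 0.0933). The causes of these shifts were not tested, and the single experiments also held fewer lungs. Of the 22 called genes named from lists, limma on the authors' processed values, array weights and the methods' t-test kept all. The call was lost by 10 with median scaling (Ctnnd2, Cxadr, Pard6a, Pard6b, Ybx3, Sele, Pvr, Rapgef1, Vwf and Krt19), by 6 with an offset of 16 (Cxadr, Pard6a, Pard6b, Ybx3, Pvr and Vwf), by 13 without the experiment block, by 15 with the replicate block, by 22 in experiment A and by 21 in B, where Lyve1 kept it. Without background correction or with a filter at the 50th percentile Pard6a lost it (Sele is below that filter), without a filter Ybx3 and Vwf, and with the Xist level those and Pvr.

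Only genes that were not called changed sign. Esam was at 0.00811 with median scaling, 0.11 relative to Cdh5 and 0.00342 in experiment A. Without the experiment block, Cdh5 was at 0.0853, Ctnnb1 at 0.0542 and Ctnnd1 at 0.185. Relative to Cdh5, Ctnnb1 was at 0.0893, Ctnnd1 at 0.00638 and S1pr2 at 0.0436. Relative to Pecam1, Jam2 was at -0.14, Cldn3 at -0.12, Gja4 at -0.21 and Icam1 at -0.14. Gja4 was also at -0.0116 with array weights and at -0.0330 in experiment A. When 1 lung was left out it ran from -0.0654 to 0.0987, below 0 without Foxf1+/- replicate 1, Foxf1+/- replicate 5 or wildtype replicate 5. In experiment B, Jam2 was at -0.0674, Tjp1 at 0.0219, Ctnnb1 at 0.0622, Icam1 at -0.0690 and S1pr2 at 0.00957. Icam1 ran from -0.00105 (without wildtype replicate 2) to 0.249 when 1 lung was left out, and another Jam2 probe was at -0.0256. The offset and the floor near a log2 of 6 limit what can be seen for S1pr1 and the dim Jam2 probes.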
